A study of Rattus norvegicus with 15 samples.

Results

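The genes of the MHC class II antigen-presentation machinery were followed in rat lung: the class II chains and chaperones of the rat MHC (RT1), the invariant chain Cd74 and the transactivator Ciita. They were chosen by symbol: 10 symbols were looked for and all 10 were present among the 22250 rows of the expression table. RNA sequencing of whole lung gave 15 libraries in 3 groups of 5, all from animals labelled wild type. The WDD group had received lipopolysaccharide (LPS, a bacterial cell-wall component) and smoke by the tracheal route, together with WDD (Wendan Decoction, a herbal preparation) into the stomach. The COPD group, a model of chronic obstructive pulmonary disease, had received the same tracheal LPS and smoke without WDD, and the third group is labelled as normal control. The labels give no strain, age, sex, dose or time, and do not say that the libraries of a group came from separate rats (the p-values then measure the spread between libraries only).

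Class II molecules are pairs of an alpha and a beta chain that carry peptides from endocytosed proteins to the cell surface, where CD4 T cells read them. The invariant chain blocks the groove during assembly and steers the pair to endosomes; proteases then cut it down, and the DM chaperone exchanges its last fragment for peptide while DO restrains DM. Dendritic cells, B cells and macrophages are the classical presenting cells, and in the lung alveolar type 2 epithelial cells carry class II as well. Transcription of the whole set depends on Ciita, a coactivator that does not bind DNA itself but docks on factors bound to the X and Y boxes of the promoters (RFX and CREB-family proteins on X, NF-Y on Y). RT1-D is the rat counterpart of human HLA-DR and RT1-B that of HLA-DQ, and both are highly polymorphic between rat strains.

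The promoters are shown because their X and Y boxes are where the factors that recruit Ciita bind. RefSeq promoter windows (assembly GRCr8, 250 bases before to 50 after the start) were found for 8 of the 10 genes, Ciita and RT1-DMb being those without one. The 60 bases around ATTGG, the core of the Y box, follow for the 7 RT1 genes, in the gene's own direction, with ATTGG and any match to ACNGATG, a shortened X box, in capitals.
RT1-Da: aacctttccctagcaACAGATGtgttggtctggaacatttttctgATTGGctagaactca
RT1-Db1: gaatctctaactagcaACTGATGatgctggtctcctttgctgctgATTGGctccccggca
RT1-Ba: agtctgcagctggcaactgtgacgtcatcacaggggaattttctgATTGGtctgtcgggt
RT1-Bb: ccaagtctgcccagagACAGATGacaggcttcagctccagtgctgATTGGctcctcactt
RT1-DMa: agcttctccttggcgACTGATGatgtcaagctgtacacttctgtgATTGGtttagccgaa
RT1-DOa: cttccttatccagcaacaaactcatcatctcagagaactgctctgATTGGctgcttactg
RT1-DOb: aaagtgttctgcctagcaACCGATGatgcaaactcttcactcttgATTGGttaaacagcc

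These windows lie on chromosome 20 of GRCr8, at chr20:4515321-4515380 (+) for RT1-Da, chr20:4560228-4560287 (-) for RT1-Db1, chr20:4576969-4577028 (+) for RT1-Ba and chr20:4604165-4604224 (-) for RT1-Bb. RT1-DOb lies at chr20:4627592-4627651 (-), RT1-DMa at chr20:4712385-4712444 (-) and RT1-DOa at chr20:4758516-4758575 (-). Over the whole 300-base windows, searched on both strands, ATTGG occurred in 8 of 8 genes, a short motif also found in 37.5% of all 33469 promoters. ACNGATG occurred in 5 of 8, against 10.2% of all promoters. Followed on the same strand by ATTGG after a gap of 15 to 35 bases, it occurred in the same 5 of 8, against 0.173% of all promoters, and the gap was 20 to 23 bases in each of the 5. The motif letters follow the textbook X and Y boxes and were set after these windows had been seen, and the motifs searched do not overlap. RT1-Ba, RT1-DOa and Cd74 had ATTGG without a match to the shortened X letters, which says only that those letters are not in the window. For Cd74 the ATTGG lay on the other strand, or close to or past the start, so it was not placed as a Y box. Of the 58 promoters with the pair, 10 belonged to RT1 genes, 6 of them class II genes and 4 not. All the promoters searched included 42 of RT1 genes.

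**Figure D1:**
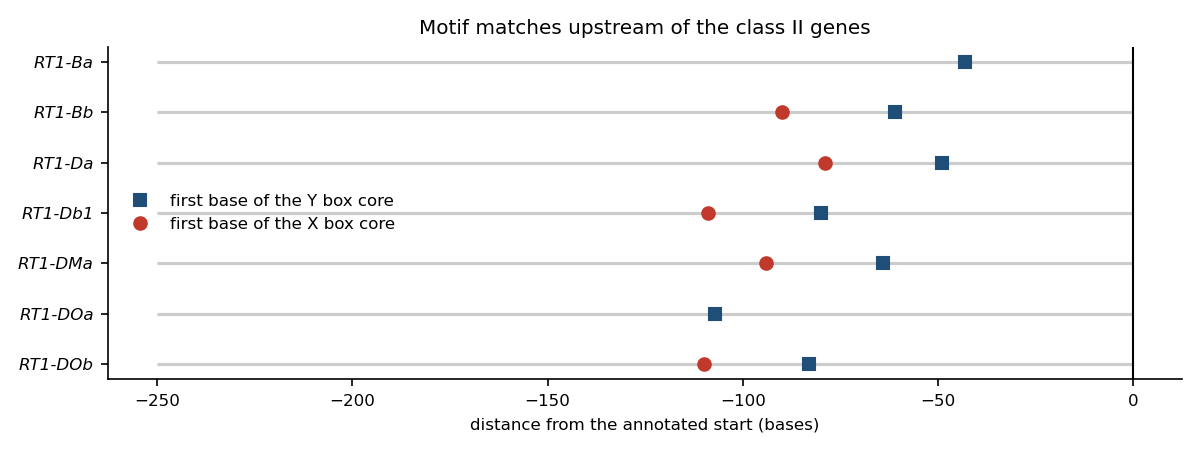
First base of the shortened X box (ACNGATG, circles) and of the Y box core (ATTGG, squares) in the promoters of 7 RT1 class II genes; the x axis is the distance from the RefSeq start in bases. In the 5 genes with both, RT1-Da, RT1-Db1, RT1-Bb, RT1-DMa and RT1-DOb, the X core lies upstream of the Y core, with 20 to 23 bases between them.

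Values are FPKM (fragments counted per transcript length and per library total), which allow levels of different genes to be set side by side per length. Several facts of whole libraries moved with the groups. The 13 mitochondrially encoded genes took 21.7% ± 2.90 of all FPKM in WDD, 44.9% ± 12.4 in COPD (65.0% in COPD 1) and 8.11% ± 1.94 in control libraries (SD, n = 5 each). The median log2 level of 21 long housekeeping transcripts was 2.75 in WDD, 2.07 in COPD and 3.75 in control lungs, and that of 22 short ones 6.44, 6.06 and 5.42 in the same order. The steps between low FPKM values put the depth of every library at 0.872 to 1.10 times that of control 2. That search allowed only small differences, so a library of much greater or lesser depth could not have been placed. WDD 4 and WDD 5 were the most alike pair of libraries within a group, with a root mean square log2 difference of 0.23 over all genes tested. The next pair, controls 4 and 5, differed by 0.34. No pair within a group shared an identical value above 0, so that check cannot tell whether the libraries of a pair had a common source. COPD 5 stood apart over all genes tested: its root mean square log2 difference from each other COPD library was 0.92 to 1.007, where the other COPD pairs differed by 0.41 to 0.71. Neutrophil markers stood at a summed 84.2 to 442 FPKM in WDD, 11187 to 43222 FPKM in COPD and 45.2 to 87.5 FPKM in control lungs. The part of these differences in the results that follow was not tested.

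Together the 10 genes held 0.337% ± 0.0373 of all FPKM in WDD lungs, 0.0784% ± 0.0319 in COPD lungs and 0.422% ± 0.0429 in control lungs (SD, n = 5 each). With mitochondrial genes left out of the total, the shares were 0.432% in WDD, 0.137% in COPD and 0.460% in control lungs. Cd74 alone made up 77.9%, 82.1% and 78.4% of the set in WDD, COPD and control lungs. In whole lung, fewer cells of a presenting type and less RNA per cell cannot be told apart.

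**Figure D2:**
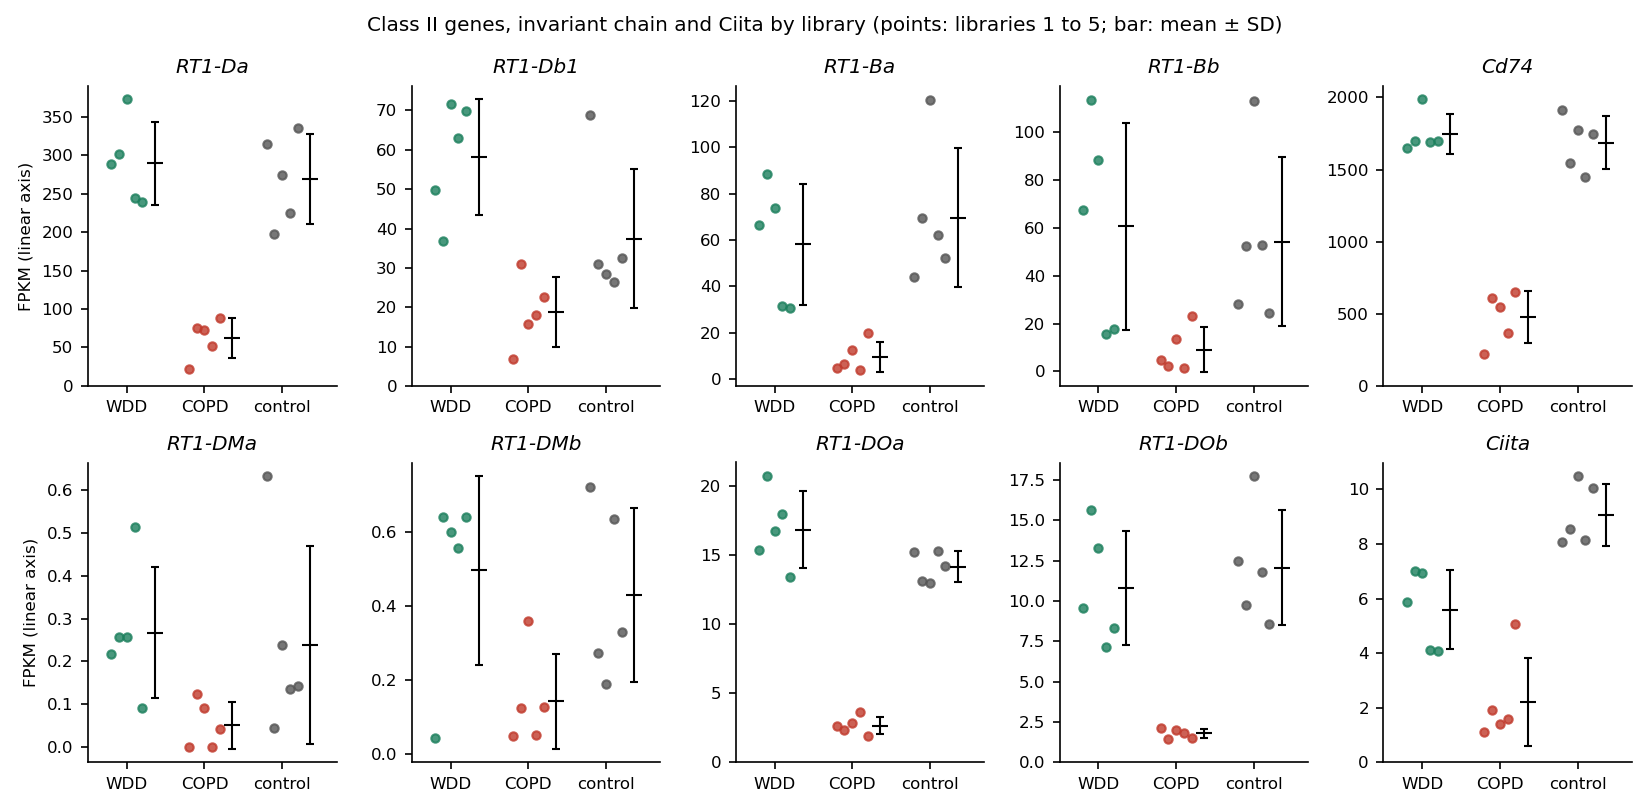
FPKM of each of the 10 genes in every library (linear axes, a panel per gene), with WDD, COPD and control from left to right; points are libraries 1 to 5 and the bar beside them is the mean ± SD. All COPD points lie below all others for Cd74, RT1-Da, RT1-Ba, RT1-DOa and RT1-DOb, and RT1-Bb has its WDD points in a high set of 3 and a low set of 2.

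RT1-Da, the alpha chain of the RT1-D molecule, was the second most abundant of the genes after Cd74. It measured 289, 302, 373, 245 and 239.6 FPKM in WDD lungs 1 to 5. In COPD lungs 1 to 5 it measured 21.7, 74.7, 73.4, 51.3 and 87.9 FPKM, and in control lungs 315, 198, 274, 225 and 335 FPKM. All COPD libraries lay below all WDD and all control libraries, while WDD and control libraries overlapped. On the log2(FPKM + 1) scale used for every fold change here, the log2 fold change was -2.22 ± 0.29 (SE) for COPD against control (limma, adjusted p = 4.16e-06). WDD exceeded COPD by 2.33 ± 0.29 on the same scale (adjusted p = 8.12e-06).

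RT1-Db1, the beta chain that pairs with RT1-Da, was less separated. It measured 49.7, 36.8, 71.6, 63.1 and 69.8 FPKM in WDD lungs, 6.82, 30.9, 15.7, 17.9 and 22.7 FPKM in COPD lungs, and 68.9, 31.0, 28.4, 26.4 and 32.4 FPKM in control lungs. COPD 2 lay above controls 3 and 4, and control 1 stood well above the other 4 controls. The log2 fold change of COPD against control was the smallest among the 8 genes tested, at -1.002 ± 0.33 (adjusted p = 0.0114). After median-of-ratios scaling, which places the median gene of each library at the same level, it was -0.12 (adjusted p = 0.763), so this call is lost. WDD was higher than COPD by 1.68 ± 0.33 (adjusted p = 0.000399), with every WDD library above every COPD library. RT1-Db1 has a close relative in the table, RT1-Db2, which stayed at or below 0.589 FPKM; how shared reads were split between them is not given in the sources used here.

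RT1-Ba, the alpha chain of the RT1-B molecule, measured 66.5, 88.6, 73.8, 31.4 and 30.5 FPKM in WDD lungs. In COPD lungs it measured 4.86, 6.54, 12.5, 4.08 and 19.9 FPKM, and in control lungs 43.9, 69.7, 121, 62.0 and 52.3 FPKM. No COPD library reached any WDD or control library, and WDD 4 and 5 were lower than the other 3 WDD libraries. COPD against control gave a log2 fold change of -2.86 ± 0.40 (adjusted p = 6.80e-06), the largest fall of the set, and WDD was above COPD by 2.57 ± 0.40 (adjusted p = 5.29e-05).

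RT1-Bb, its beta-chain partner, was the most variable of the 8 genes tested. It measured 67.5, 114, 88.5, 15.7 and 17.7 FPKM in WDD lungs and 4.62, 2.09, 13.6, 1.44 and 23.3 FPKM in COPD lungs. Control lungs gave 28.3, 52.3, 113, 53.0 and 24.6 FPKM. COPD libraries all lay below control libraries, with COPD 5 only just under control 5, but WDD 4 and 5 lay below COPD 5. The log2 fold change was -2.80 ± 0.67 for COPD against control (adjusted p = 0.00120) and 2.77 ± 0.67 for WDD against COPD (adjusted p = 0.00195). The standard error was the largest of the set.

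Cd74, the invariant chain, measured 1648, 1699, 1991, 1689 and 1696 FPKM in WDD lungs. COPD lungs gave 221, 612, 548, 365 and 649 FPKM, and control lungs 1913, 1546, 1775, 1451 and 1744 FPKM. The group means were 1745 ± 139 FPKM in WDD, 479 ± 181 FPKM in COPD and 1686 ± 185 FPKM in control lungs (SD, n = 5 each), and every COPD library lay below every library of the other groups. COPD stood at 0.266 times control (95% interval 0.187 to 0.379; log2 fold change -1.91 ± 0.24, adjusted p = 2.54e-06). WDD stood at 3.90 times COPD (95% interval 2.74 to 5.56; log2 fold change 1.96 ± 0.24, adjusted p = 6.44e-06).

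The DO chains were measurable in every library, and the DM chains had values near 0. RT1-DOa, the alpha chain of DO, measured 15.4, 20.8, 16.8, 18.01 and 13.4 FPKM in WDD lungs, 2.61, 2.34, 2.86, 3.65 and 1.91 FPKM in COPD lungs, and 15.2, 13.2, 13.0, 15.3 and 14.2 FPKM in control lungs. It had the smallest standard errors and the lowest p-values of the set in both comparisons: its log2 fold change was -2.06 ± 0.15 for COPD against control (adjusted p = 8.34e-09) and 2.29 ± 0.15 for WDD against COPD (adjusted p = 1.27e-08).
RT1-DOb, the beta chain of DO, measured 9.58, 15.7, 13.3, 7.17 and 8.32 FPKM in WDD lungs, 2.16, 1.47, 2.01, 1.81 and 1.54 FPKM in COPD lungs, and 12.5, 9.75, 17.8, 11.8 and 8.56 FPKM in control lungs. Its COPD libraries were again all lowest. COPD against control gave a log2 fold change of -2.19 ± 0.21 (adjusted p = 1.25e-07), and WDD exceeded COPD by 2.03 ± 0.21 (adjusted p = 1.14e-06).

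RT1-DMa and RT1-DMb, the chains of the DM exchange factor, never reached 1 FPKM in this table. Such values depend on the gene models used for counting, and whether these models cover the DM transcripts was not tested, so the values may not measure how much DM the lung makes. RT1-DMa ranged from 0.0916 to 0.514 FPKM in WDD, 0 to 0.123 FPKM in COPD and 0.0454 to 0.632 FPKM in control lungs. RT1-DMb ranged from 0.0431 to 0.639, 0.0463 to 0.359 and 0.189 to 0.719 FPKM in WDD, COPD and control lungs. Both fell under the filter for testing (at least 1 FPKM in at least 5 libraries), so the counts given for the class II genes are over the other 8, each of which was above 1 FPKM in all 15 libraries. Tested without the filter, neither passed for COPD against control (adjusted p = 0.121 for RT1-DMa and 0.0821 for RT1-DMb) or for WDD against COPD (0.0786 and 0.0501). A further pair of class II symbols outside the 10 was also low: RT1-Db2 as given above, and RT1-Ha at or below 1.41 FPKM and listed at 0 in every COPD library.

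Ciita, the transactivator, was the scarcest of the 8 genes tested in WDD and control lungs. It measured 5.86, 6.996, 6.94, 4.11 and 4.06 FPKM in WDD lungs, 1.10, 1.91, 1.39, 1.59 and 5.05 FPKM in COPD lungs, and 8.07, 8.55, 10.49, 8.13 and 10.04 FPKM in control lungs. The controls stood above all other libraries, and COPD 5 stood apart from its group, inside the WDD range. In COPD against control the log2 fold change was -1.76 ± 0.24 (adjusted p = 6.03e-06), or -2.01 without COPD 5. WDD was above COPD by 1.12 ± 0.24 (adjusted p = 0.000798), or by 1.38 without COPD 5; after median-of-ratios scaling the difference was 0.65 (adjusted p = 0.0618), so this call is lost. The order of the group means of Ciita, WDD between COPD and control, was also that of the long housekeeping transcripts. Over all genes the median log2 fold change against control was -0.81 for COPD and -0.23 for WDD, the same order. The part of transcript length in the Ciita values was not tested.

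In COPD 5, the library that stood apart over all genes, some genes of the interferon-gamma route that drives Ciita were also far from the other COPD libraries; these were singled out after their values were seen. Irf1, which binds the interferon-inducible Ciita promoter, measured 533 FPKM in COPD 5 and 39.2 to 64.6 FPKM in COPD 1 to 4. Socs1, a feedback inhibitor of the route, measured 224 FPKM in COPD 5 and 1.38 to 4.05 FPKM in the other 4. The costimulatory receptor Cd40 measured 145 FPKM and the inhibitory ligand Cd274 83.5 FPKM in COPD 5, where COPD 1 to 4 gave 5.50 to 13.9 and 2.54 to 7.66 FPKM. Of the receptor chains of that route, Ifngr1 was lowest in COPD 5, at 69.6 FPKM with 109 to 231 FPKM in COPD 1 to 4, and Ifngr2, at 75.5 FPKM, lay within their range of 57.0 to 79.99 FPKM. Ifng, the gene of the cytokine itself, measured 0.569 FPKM in COPD 5. It measured 0 to 0.316 FPKM in COPD 1 to 4 and 0.309 to 2.26 FPKM in control lungs. What raised the other genes in COPD 5 was not tested. COPD 5 was also the highest COPD library for Cd74, RT1-Da, RT1-Ba and RT1-Bb, but the lowest for RT1-DOa.

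Set against all genes tested, COPD against control gave a fall in 8 of the 8 class II genes, where 66.4% of 13172 genes were called lower. The median log2 fold change was -2.13 over the 8, beside -0.81 over all genes, and 6.40% of genes lay below the median of the 8. Adding 1 to FPKM pulls the fold changes of genes with low values toward 0, in this comparison and the next. The part of expression level in these medians and percentages was not tested. All COPD libraries lay below all control libraries for 7 of the 8, RT1-Db1 being the exception, against 52.3% of all genes. Because the median gene itself fell by 0.81, the fall was also read relative to it: Ciita, Cd74, RT1-Da, RT1-DOa, RT1-DOb, RT1-Ba and RT1-Bb lay 0.94 to 2.05 below the median gene, and RT1-Db1 0.19 below. With median-of-ratios scaling 7 of the 8 were called lower, beside 32.6% of all genes. Without COPD 1, the library of highest mitochondrial share, and COPD 5 together, 8 of 8 were still called lower.

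WDD against COPD, a comparison that shares the COPD libraries with the previous one, gave a rise in 8 of the 8 genes, where 57.1% of all genes were called higher. The median was 2.16 over the 8 and 0.54 over all genes, and 98.2% of genes lay below the median of the 8. All WDD libraries lay above all COPD libraries for 6 of the 8, RT1-Bb and Ciita being the exceptions, against 40.6% of all genes. With median-of-ratios scaling 7 of the 8 were called higher, beside 23.3% of all genes, and without COPD 1 and 5 together 8 of 8 were.

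WDD against control gave few calls by limma: 0 of the 8 higher (6.35% of all genes were) and 1, Ciita, lower (31% of all genes were). At an unadjusted p under 0.05 the counts were the same. The median log2 fold change was 0.01 over the 8 and -0.23 over all genes. The log2 fold change of Ciita was -0.63 ± 0.24 (95% interval -1.14 to -0.12, adjusted p = 0.0489), with all WDD libraries below all control libraries, as for 31.4% of all genes; the call is lost with median-of-ratios scaling (-0.38, adjusted p = 0.310) and without any 1 of the 5 controls, of WDD 1, 4 and 5 or of COPD 2, 3 and 4 (adjusted p = 0.00380 to 0.121 over all libraries left out in turn). With that scaling 0 of the 8 were lower and 2 higher, RT1-Db1 and RT1-DOa, beside 17.2% and 15.7% of all genes. The intervals of the other genes allowed changes in either direction: -0.46 to 0.56 for Cd74, -0.51 to 0.74 for RT1-Da, -0.02 to 1.38 for RT1-Db1, -0.09 to 0.53 for RT1-DOa and -0.60 to 0.28 for RT1-DOb. For RT1-Ba and RT1-Bb they were wider, at -1.14 to 0.54 and -1.44 to 1.38. These intervals do not show that WDD and control lungs were alike.

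**Figure D3:**
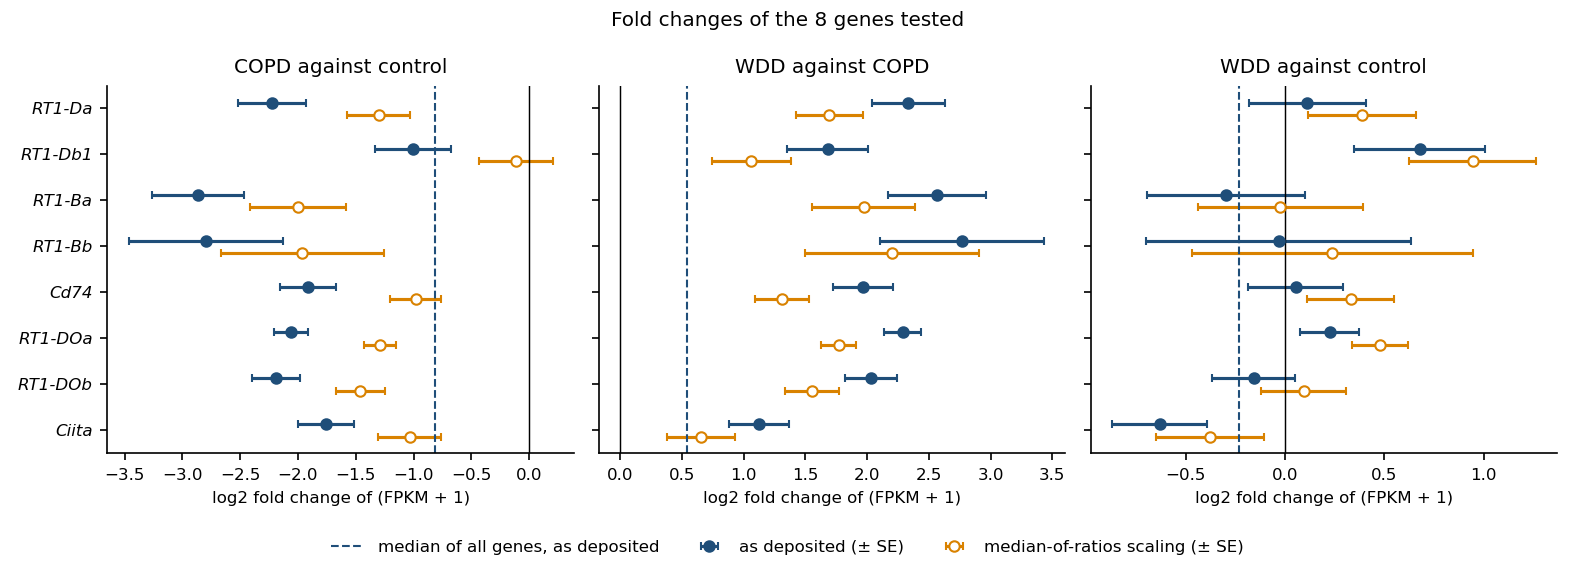
Log2 fold change of FPKM + 1 (± SE) for each of the 8 genes tested, in a panel per comparison; filled points use the FPKM as deposited, open points the values after median-of-ratios scaling, and the dashed line is the median of all genes as deposited. Filled points run from -2.86 to -1.002 for COPD against control, from 1.12 to 2.77 for WDD against COPD and from -0.63 to 0.68 for WDD against control; the open point of RT1-Db1 lies near 0 for COPD against control.

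Within groups the FPKM of the B chains relative to the D chains varied. The log2 ratio of RT1-Bb to RT1-Db1 was 0.44, 1.63, 0.31, -2.003 and -1.98 in WDD lungs 1 to 5, and -0.56, -3.89, -0.20, -3.64 and 0.04 in COPD lungs. In control lungs it was -1.28, 0.76, 1.99, 1.01 and -0.40. By FPKM, the beta chain of B thus stood above that of D in 7 of the 15 libraries and below it in 8, with both kinds in every group. These genes are highly polymorphic between rat strains, the labels give no strain, and reads were placed on a reference build. How far alleles unlike the reference affect these FPKM was not tested, so the ratios may not measure the balance of the chains. The log2 ratio of RT1-Ba to RT1-Db1 was -1.19 to 1.27 in WDD, -2.24 to -0.19 in COPD and -0.65 to 2.09 in control lungs, so it took both signs in WDD and control lungs and was below 0 in all COPD lungs. In contrast, the ratio of RT1-Da to Cd74 was narrow, at -2.61 ± 0.19 in WDD, -2.999 ± 0.21 in COPD and -2.67 ± 0.21 in control lungs (log2, SD, n = 5 each). The ratio of Ciita to Cd74 was -8.32 ± 0.35, -7.89 ± 0.62 and -7.54 ± 0.20 in WDD, COPD and control lungs on the same scale.

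**Figure D4:**
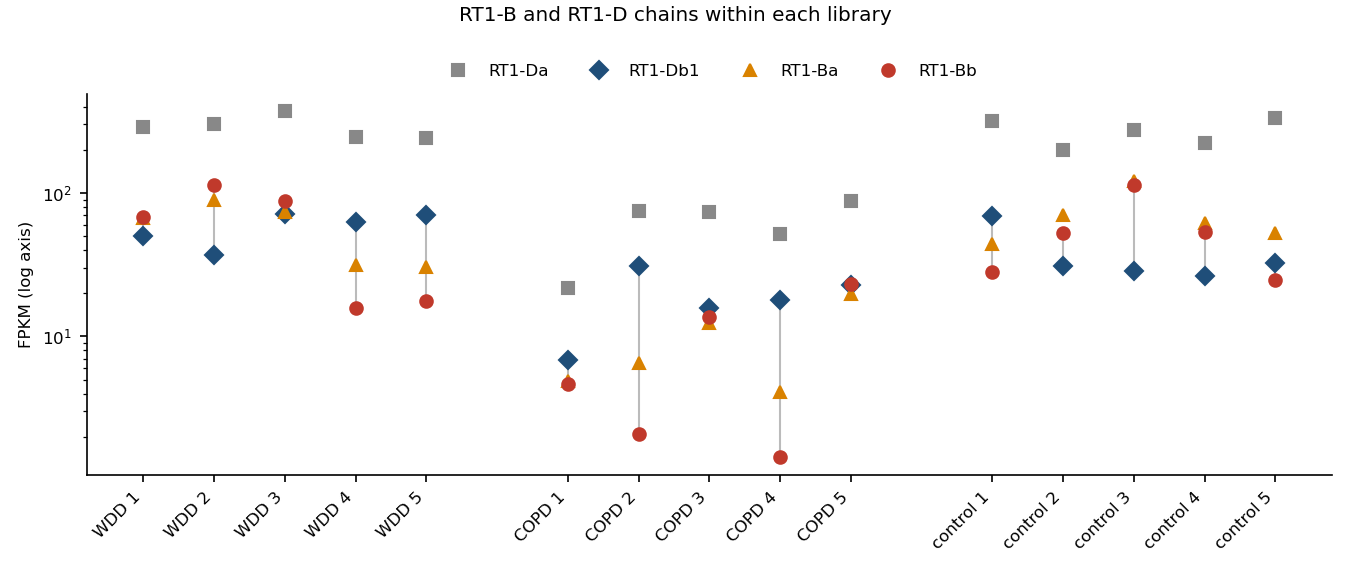
FPKM (log axis) of the 4 classical chains in each of the 15 libraries, WDD, COPD and control from left to right; a grey line joins RT1-Bb and RT1-Db1 of the same library. RT1-Bb (circles) and RT1-Ba (triangles) lie below RT1-Db1 (diamonds) in WDD 4 and 5, COPD 1 to 4 and control 1, and above it in WDD 1, 2 and 3 and in controls 2, 3 and 4; in COPD 5 and control 5 the chains of B lie on either side of it.

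The genes whose pattern over the 15 libraries was nearest to that of Cd74 were mostly outside the class II set. Likeness was taken as the root mean square difference of log2(FPKM + 1), each gene centred on its mean; Cd74's own deviation from its mean was 0.98. Nearest was Sftpd, a surfactant collectin of alveolar type 2 cells, at 0.18, with 218 ± 19.0 FPKM in WDD, 63.0 ± 28.2 FPKM in COPD and 226 ± 19.1 FPKM in control lungs (SD, n = 5 each). Tspan13, the epithelial keratin Krt8, the lymphatic endothelial receptor Lyve1 and Tmem50a followed at 0.22 to 0.24. RT1-Da, at 0.24, had rank 5 of all genes tested, and the other class II genes ranked from 574 for RT1-DOa to 11514 for RT1-Bb.

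The related lists were read against the background of all genes. In COPD against control 66.4% of all genes were called lower and 8.23% higher, with a median of -0.81, and with median-of-ratios scaling 32.6% lower and 30% higher. In WDD against COPD 57.1% were called higher and 6.63% lower, with a median of 0.54, and with that scaling 21.4% lower and 23.3% higher.

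The factors on which Ciita docks came first. Of 7 RFX, NF-Y and CREB-family genes tested, 3 fell in COPD against control, with log2 fold changes of -0.96 ± 0.12 for Nfyc, -0.50 ± 0.12 for Nfya and -0.39 ± 0.14 for Atf1 (SE, as for every log2 fold change here). Their direction depended on scaling, since with median-of-ratios scaling 4 were called higher and 0 lower. In WDD against COPD, Nfyc rose (0.73 ± 0.12) and Creb1 fell (-0.63 ± 0.25), and 5 of the 7 did not pass. Rfxap, an RFX subunit, was listed at 0 in every library. Whether the gene models cover its transcripts was not tested, so this value may not measure its expression.

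Among 14 genes that control Ciita, 2 rose and 6 fell in COPD against control. Ifngr2, a subunit of the interferon-gamma receptor, rose by 1.66 ± 0.12 and Spi1, a myeloid transcription factor, by 1.78 ± 0.26. Irf4, a factor of the myeloid and lymphoid Ciita promoters, had a log2 fold change of -1.47 ± 0.17, and Usf1, which acts at the inducible promoter, one of -0.88 ± 0.15. In WDD against COPD 4 rose and 2 fell, with log2 fold changes of -1.81 ± 0.12 for Ifngr2, -1.53 ± 0.26 for Spi1, 0.89 ± 0.17 for Irf4 and 0.88 ± 0.15 for Usf1. The split turned with scaling: after median-of-ratios scaling 6 were higher and 1 lower in COPD against control, and 2 higher and 6 lower in WDD against COPD.

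Of 13 genes of endosomal processing and class II turnover, 6 fell and 0 rose in COPD against control, a share below the 66.4% of all genes called lower, and the list median was -0.39, beside -0.81 over all genes. Log2 fold changes were -2.13 ± 0.20 for Ctsd, an endosomal protease, -1.93 ± 0.20 for Lgmn, the asparaginyl endopeptidase, and -2.20 ± 0.25 for Ctse, another endosomal protease. Ctss, the protease best known for trimming the invariant chain and named here for that role, stood at -0.14 ± 0.31 and did not pass. In WDD against COPD 6 rose, led by Ctse at 2.48 ± 0.25 and the cathepsin inhibitor Cst3 at 2.36 ± 0.33, and 2 fell. With median-of-ratios scaling 5 were higher and 4 lower in COPD against control, and 4 higher and 4 lower in WDD against COPD, so these counts depend on the scaling.

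The recognising side was counted next. Of 9 genes of the CD4 T-cell side, 8 fell in COPD against control and 8 rose in WDD against COPD (6 and 8 with median-of-ratios scaling), where 66.4% and 57.1% of all genes did. Cd4, the coreceptor that binds class II, averaged 20.9 ± 6.11 FPKM in WDD, 1.83 ± 0.812 FPKM in COPD and 40.6 ± 13.2 FPKM in control lungs (SD, n = 5 each). Cd3e, a chain of the T-cell receptor complex, averaged 13.2 ± 2.68, 0.793 ± 0.443 and 14.5 ± 3.54 FPKM in the same order of groups. Of 7 costimulatory genes 5 fell in COPD against control, among them Cd83, which stabilises surface class II (-1.50 ± 0.18), and Icoslg, a ligand of the T-cell receptor Icos (-1.52 ± 0.18); with median-of-ratios scaling 2 were lower and 1 higher. The share of 5 in 7 is near the 66.4% of all genes called lower, and the list median was -0.55, beside -0.81 over all genes. Of the 7, 3 rose and 1, Cd274, fell in WDD against COPD, which with median-of-ratios scaling became 1 and 1.

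Cd74 is also a surface receptor for the cytokine Mif, and the 6 genes of that route gave a mixed count. In COPD against control 1 rose, the neutrophil receptor Cxcr2 (4.59 ± 0.34), and 2 fell, Cxcr4 (-1.40 ± 0.22) and the Mif relative Ddt (-0.64 ± 0.19). Mif itself stood at -0.06 ± 0.26. With median-of-ratios scaling 3 were higher and 1 lower. Between WDD and COPD, 3 rose and 1 fell in WDD, against 2 and 3 with that scaling.

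Markers of the cell types that carry class II are given by list, beside the 66.4% of all genes called lower in COPD against control and the 57.1% called higher in WDD against COPD. Of 10 alveolar type 2 markers 8 fell in COPD against control and 8 rose in WDD against COPD (7 lower and 2 higher, and 8 higher and 2 lower, with median-of-ratios scaling). Their summed level was 19708 to 23090 FPKM in WDD, 3107 to 14407 FPKM in COPD and 16638 to 25378 FPKM in control lungs. Sftpc alone made up most of each sum, at 13144 to 15851 FPKM in WDD, 1842 to 10695 FPKM in COPD and 9156 to 15268 FPKM in control lungs. Slc34a2, a phosphate transporter of these cells, had the largest fall of the 10. It averaged 204 ± 38.4 FPKM in WDD, 61.7 ± 15.7 FPKM in COPD and 574 ± 159 FPKM in control lungs (SD, n = 5 each). Napsa and Lamp3 did not pass in COPD against control. Napsa measured 128 to 270 FPKM in COPD and 220 to 278 FPKM in control lungs, and Lamp3 112 to 292 and 136 to 311 FPKM.
Of 8 dendritic-cell markers 6 fell in COPD against control (5 lower and 2 higher with median-of-ratios scaling), led by the growth factor receptor Flt3 at -2.78 ± 0.20 and the uptake receptor Clec9a at -2.15 ± 0.20. The share of 6 in 8 is near the 66.4% of all genes called lower, and the list median was -1.82, beside -0.81 over all genes. Batf3 and Itgax did not pass in COPD against control, and they were the 2 called higher with that scaling. In WDD against COPD 6 rose and 1, the integrin Itgax, fell (5 and 1 with that scaling). Their sum was 81.0 to 119.7 FPKM in WDD, 43.6 to 145 FPKM in COPD and 92.3 to 117 FPKM in control lungs. The upper COPD value is that of COPD 5, where Clec10a, a lectin of dendritic cells and macrophages named after its values were seen, measured 84.8 FPKM with 1.14 to 3.21 FPKM in COPD 1 to 4. Without COPD 5 the COPD sums were 43.6 to 70.2 FPKM, below every WDD and control library. Most of each of these sums came from Batf3, at 17.0 to 34.6 FPKM in COPD 1 to 4, and Itgax, at 13.5 to 25.3 FPKM.
Of 10 B-cell markers 5 fell and 1, Pax5, rose in COPD against control, and 5 rose in WDD against COPD. With median-of-ratios scaling the counts became 2 lower and 2 higher, and 4 higher. Their sum was 40.9 to 76.4 FPKM in WDD, 5.79 to 48.2 FPKM in COPD and 42.5 to 57.3 FPKM in control lungs; without COPD 5 the COPD sums were 33.2 to 48.2 FPKM. These shares of calls lie below those of all genes, the list median in COPD against control was -0.61 beside -0.81 over all genes, and without COPD 5 the counts were 5 lower and 3 higher, and 5 higher and 2 lower.
Of 8 macrophage markers 4 fell in COPD against control, Mertk and Mrc1 first, and 3 rose in WDD against COPD, shares below those of all genes. Marco, a further macrophage marker that fell under the filter and was not tested, measured at most 0.0466 FPKM in WDD lungs, 2.38, 2.15, 7.04, 5.35 and 0 FPKM in COPD lungs 1 to 5, and was listed at 0 in every control. With median-of-ratios scaling 4 were lower and 3 higher in COPD against control, and 1 was higher and 2 lower in WDD against COPD. Their sum was 177 to 216 FPKM in WDD, 88.0 to 229 FPKM in COPD and 203 to 291 FPKM in control lungs.

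Markers of other lung cells moved too. All 7 alveolar type 1 markers, all 8 T-cell markers and 5 of 6 endothelial markers fell in COPD against control, the same numbers rose in WDD against COPD, and all 8 neutrophil markers did the opposite. With median-of-ratios scaling 6, 6 and 3 of the first lists fell, and 7, 8 and 3 rose, while the neutrophil counts were the same. The T-cell list shares its Cd3 genes with the CD4 list, and Cxcr2 is in both the Mif and the neutrophil lists. Of all the markers in these lists only Cldn5, an endothelial gene, was listed at 0 in every library. Whether the gene models cover the Cldn5 transcript was not tested either. The part of cell makeup in the class II values was not tested.

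**Figure D5:**
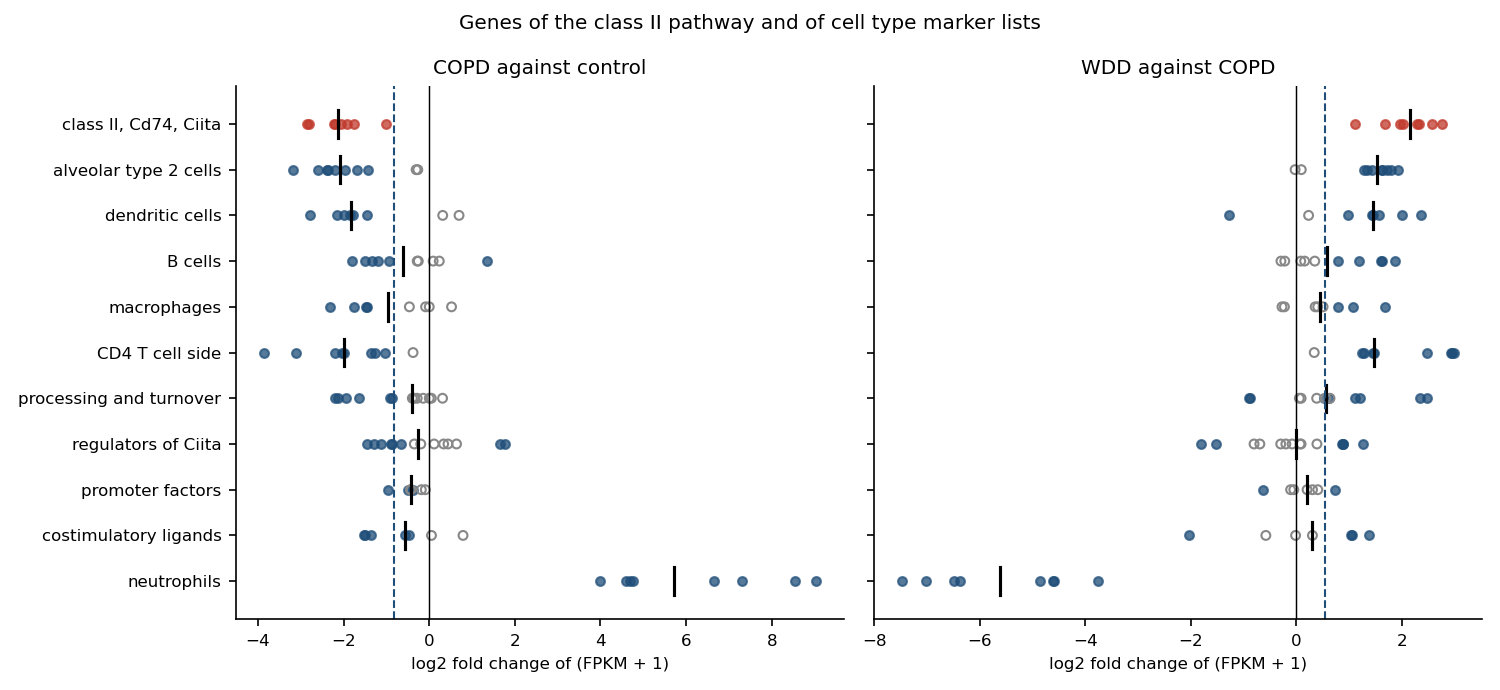
Log2 fold change of each gene in the class II set and in 10 lists of related genes and cell markers, for COPD against control and WDD against COPD; filled points passed at an adjusted p under 0.05, open grey points did not, the black bar is the list's median and the dashed line the median of all genes tested. The class II set has medians of -2.13 and 2.16, beside -0.81 and 0.54 over all genes.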

How the data were processed

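Total RNA of whole rat lung was taken up with TRIzol and made into NEBNext Ultra libraries, per the labels' protocols. The authors deposited FPKM per gene; the submitters' processing notes name cutadapt, HISAT2, StringTie and build Rnor_6.0, while versions, annotation release and strand use are not stated there. FPKM are scaled to the library total, so a larger mitochondrial share leaves a smaller share of the total for other genes. Scaled to totals without mitochondrial genes, the median log2 fold change over all genes was -0.65 for COPD against control, in place of -0.81. For WDD against COPD it was 0.26 in place of 0.54, and for WDD against control -0.37 in place of -0.23. The part of the mitochondrial share in the group differences was not tested. The 10 genes and the other lists were chosen with earlier results of these data known.

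From the deposited FPKM, log2(FPKM + 1) was computed and limma 3.58.1 (R 4.3.3, trend, two-sided) fitted to all 15 libraries together, on the 13172 genes with at least 1 FPKM in at least 5 libraries. Calls are at a Benjamini-Hochberg adjusted p under 0.05 over all these genes. The fit was tested on simulated data. All 10 genes, at most 4 genes of each other list by lowest p, and the 5 genes most like Cd74 are named. Further genes outside this rule are named for their role, for their direction, or for lying at 0 or under the filter. Others, such as those of COPD 5, were named after their values were seen. Alternatives were other pseudocounts (0.1 and 0.5) and filters, median-of-ratios and quantile scaling, totals without mitochondrial genes, array weights, a replicate block and leaving out libraries. Replicate numbers were checked as a pairing: 1 of 15 same-numbered pairs of libraries deviated together with a correlation above 0.1, so they were not treated as pairs. Promoter sequences are RefSeq's, on GRCr8; no coordinates of Rnor_6.0 were used. The total number of reads per library is unknown.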

Additional observations from a re-analysis of the deposited data

Results flagged for a closer look

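Of 30 sets of 5 libraries examined (10 genes in 3 groups), 5 held a library set apart from the other 4 by more than Dixon's 95% critical value allows; chance alone marks about 1 in 20 such sets. Cd74 measured 1991 FPKM in WDD 3, above 1648 to 1699 FPKM in the other WDD lungs. Ciita measured 5.05 FPKM in COPD 5, above 1.10 to 1.91 FPKM in the other COPD lungs. RT1-Db1 measured 68.9 FPKM in control 1, above 26.4 to 32.4 FPKM in the other controls. RT1-DMb, which is near the floor of detection throughout, measured 0.0431 FPKM in WDD 1, below 0.554 to 0.639 FPKM in the other WDD lungs. It measured 0.359 FPKM in COPD 3, above 0.0463 to 0.125 FPKM in the other COPD lungs. Without control 1, RT1-Db1 was higher in WDD than in control by 0.92 on the log2 scale (adjusted p = 0.0298), a call not made with it.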

How the results depend on the processing

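For the 8 genes tested, COPD against control and WDD against COPD each kept direction and call in 222 of 224 gene and setting pairs (28 settings). The exceptions were RT1-Db1 in COPD against control, at -0.12 with median-of-ratios and -0.45 with quantile scaling (adjusted p = 0.763 and 0.203), and Ciita in WDD against COPD, at 0.65 and 0.49 (adjusted p = 0.0618 and 0.129); the cause was not tested. Leaving out any 1 library kept 8 calls in both.

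WDD against control was less stable. Its 1 lower call, Ciita, became 0 with a pseudocount of 0.1 or 0.5, with no filter, with a mean of at least 5 FPKM, with median-of-ratios scaling, with WDD 4 and 5 averaged (an alternative added after the data were seen) and with the replicate block (adjusted p = 0.0627), and 0 to 1 on leaving out a library; with quantile scaling the 1 lower call was Cd74. Higher calls numbered 2 with median-of-ratios and with quantile scaling and 1 with array weights, with the 2 groups alone and without COPD 1 and 5 together, and 0 to 1 on leaving out a library, against 0. Direction turned for Cd74 (-0.70 with quantile scaling, adjusted p = 0.00187; -0.10 without mitochondrial genes), RT1-Da (-0.0857 and -0.0441), RT1-DOb (0.0930 with median-of-ratios and 0.19 with quantile scaling) and RT1-Bb (0.24, 0.0556, and 0.32 with WDD 4 and 5 averaged; -0.36 to 0.34 on leaving out a library).

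Counts over all genes moved with the scaling. COPD against control gave 1084 higher and 8749 lower, against 3947 and 4296 with median-of-ratios and 3737 and 3893 with quantile scaling. WDD against COPD gave 7526 higher and 873 lower, against 3075 and 2819, 2910 and 2469, 4544 and 1511 without mitochondrial genes, and 1332 lower without COPD 1 and 5. WDD against control gave 836 higher and 4079 lower, against 2070 and 2262, 2288 and 2408, 2093 higher with array weights, 1642 higher with the 2 groups alone, 1487 higher without COPD 1 and 5, and 2555 lower with a mean of at least 5 FPKM. Leaving out a library gave 954 to 1335 higher and 8392 to 8983 lower, 6814 to 7754 and 797 to 1082, and 591 to 1162 and 3451 to 4924 in these comparisons. Median-of-ratios scaling set the median gene at -0.05, 0.03 and 0.00 in place of -0.81, 0.54 and -0.23.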

Other observations

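The genes whose deviations from their group means were most like those of RT1-Bb were listed after its spread had been seen, as a description over 15 libraries. RT1-Ba came first. The others of the first 10 were, in order, AABR07044404.1, LOC100364500, Llgl1, Srpx2, Cfap97, the class I gene RT1-CE3, Tap2, Zfp281 and LOC103689996. Tap2 is a subunit of the peptide transporter that serves class I. Ciita ranked 150, RT1-DOb 280 and RT1-Db1 9364. Tap2 measured 2.07, 3.12, 1.17, 0.214 and 0.524 FPKM in WDD lungs, 0.432, 0.352, 0.613, 0.258 and 3.35 FPKM in COPD lungs, and 0.194, 2.27, 4.07, 2.11 and 0.405 FPKM in control lungs. Its lowest WDD values were in WDD 4 and 5 and its lowest control values in controls 1 and 5, as for RT1-Bb. In the RefSeq table (GRCr8), RT1-Db1, RT1-Ba, RT1-Bb, RT1-DOb, Tap2, Psmb8, Tap1, Psmb9, RT1-DMb and RT1-DMa follow one another along the chromosome.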
